A study of Homo sapiens with 34 samples.

Results

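The insulin-like growth factor (IGF) genes were followed through the haematopoietic differentiation of H1, an established human embryonic stem cell line. The set holds 10 genes, found by their symbols among the 20255 genes of the expression table. It has the ligands IGF1 and IGF2, the receptors IGF1R and IGF2R, and the binding proteins IGFBP2, IGFBP3, IGFBP4, IGFBP5, IGFBP6 and IGFBP7. Mean IGF2 rose from 92.3 on day 2 to 19634 by day 4, and from day 6 it was 15.0 to 31.7 times lower in the blood cells that carry CD43 than in the cells that lack it. IGFBP3 was lower in CD43+ cells as well, and IGFBP5 and IGFBP4 were lower by more than 4-fold from day 9 and by less on day 6. IGF1 was lower in CD43+ cells on days 6 and 9 and higher in them on days 12 and 16. The receptors changed by less than 4-fold in every comparison made.

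The cells formed embryoid bodies, which were attached to collagen IV on day 0 and given BMP4 and VEGF during attachment to start mesoderm formation. VEGF alone followed, from day 2 by the culture protocol and from day 3 by the general treatment note of the labels, and no haematopoietic cytokine was used. The 34 samples are 1 of undifferentiated cells without treatment, and 3 biological replicates each of unsorted cells on days 0 (embryoid bodies), 2 and 4, and of sorted CD43+ and CD43- cells on days 6, 9, 12 and 16. The labels of single samples give BMP4 and VEGF as the treatment for day 0, and VEGF already for day 2 and for all later days. By the culture protocol BMP4 and VEGF were first added with attachment on day 0, so that cells of day 2 had been through both. On day 16 the sorts were CD43+/CD45+ and CD43-CD45-, so that the gates of day 16 differ from those of the earlier days. All samples come from 1 cell line, and the undifferentiated sample has no replicate and entered no test.

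The summed value of SPN, which encodes CD43, and PTPRC, which encodes CD45, was 5979 to 18206 over the CD43+ samples of the 4 days and 19 to 606 over the CD43- samples. The highest CD43- sums were 606 in day 12 replicate 3 and 370 in day 16 replicate 2. CD43- cells of the later days also held neutrophil markers (MPO, ELANE, AZU1, PRTN3), with sums of 80, 464 and 6286 on day 12 and of 6093, 19907 and 12246 on day 16, against 131748 to 163793 in the CD43+ cells of day 16. Markers of stroma, endothelium and yolk-sac endoderm stood side by side in CD43- cells. On day 16 the stromal list (COL1A1, COL1A2, COL3A1, DCN, LUM, POSTN, PDGFRB, PDGFRA, ACTA2, TAGLN) summed to 323974 to 329420 in CD43- cells, the endothelial list (PECAM1, CDH5, KDR, TEK, EMCN) to 47841 to 60301, and the endoderm list (AFP, ALB, APOA1, TTR, TF, FGB) to 12906 to 22248. CD43+ cells changed in make-up with time: their erythroid sum (HBE1, HBZ, ALAS2, AHSP) was 99065 to 190557 on days 6 and 9, with HBE1 at the top value of 90700 in each sample, and 4170 to 13305 on days 12 and 16. The cell type that holds a transcript cannot be read from such mixtures.

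IGF1 and IGF2 are small secreted hormones that bind the receptor tyrosine kinase IGF1R, which drives growth and survival through the IRS, PI3K and AKT proteins. IGF2R carries no kinase: it takes up IGF2 and sends it to lysosomes. The IGF-binding proteins hold the ligands outside the cell, and proteases such as PAPPA, PAPPA2 and HTRA1 cut them and set the ligands free. IGF2 is the main fetal ligand, an imprinted gene read from the paternal copy, and it shares a domain with H19, a long noncoding RNA read from the maternal copy. IGF1 is the main ligand after birth and is made, among other cells, by macrophages.

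The starts of the genes printed below show how unlike their promoters are. RefSeq (assembly GRCh38.p14) gave windows of 300 bases around annotated starts for 8 of the 10 genes, 11 windows in all; IGF2 and IGFBP7 had none in the table. Each window was searched on both strands for the TATA box letters TATAAA, which 11.6% of all 34943 promoter windows hold, and for the GC box letters GGGCGG, which 44.9% hold; capitals mark the matches, with GGGCGG on the other strand printed as CCGCCC. They are shown for IGF1, whose difference between CD43+ and CD43- cells turned round, and for IGFBP3, IGFBP4 and IGFBP5, which were lower in CD43+ cells. The windows lie at chr12:102481698-102481997 (minus strand), chr7:45921223-45921522 (minus strand), chr17:40443200-40443499 (plus strand) and chr2:216695500-216695799 (minus strand), in this order.
IGF1: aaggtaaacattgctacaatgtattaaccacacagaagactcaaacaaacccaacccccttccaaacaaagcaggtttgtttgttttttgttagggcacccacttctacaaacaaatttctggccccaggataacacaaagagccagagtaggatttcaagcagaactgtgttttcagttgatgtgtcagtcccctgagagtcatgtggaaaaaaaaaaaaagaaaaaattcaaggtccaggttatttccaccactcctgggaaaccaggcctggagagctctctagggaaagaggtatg
IGFBP3: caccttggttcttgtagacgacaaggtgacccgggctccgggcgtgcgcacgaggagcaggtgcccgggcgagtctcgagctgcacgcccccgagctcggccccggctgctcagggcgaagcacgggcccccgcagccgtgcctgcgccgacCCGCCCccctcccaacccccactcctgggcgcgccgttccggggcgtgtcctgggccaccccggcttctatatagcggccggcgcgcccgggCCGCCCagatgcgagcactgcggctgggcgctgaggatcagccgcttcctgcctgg
IGFBP4: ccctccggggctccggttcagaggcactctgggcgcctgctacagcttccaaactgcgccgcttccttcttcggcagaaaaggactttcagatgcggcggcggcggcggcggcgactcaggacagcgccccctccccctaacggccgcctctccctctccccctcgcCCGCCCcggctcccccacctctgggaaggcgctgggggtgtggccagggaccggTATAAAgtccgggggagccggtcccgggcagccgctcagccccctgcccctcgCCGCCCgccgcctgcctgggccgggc
IGFBP5: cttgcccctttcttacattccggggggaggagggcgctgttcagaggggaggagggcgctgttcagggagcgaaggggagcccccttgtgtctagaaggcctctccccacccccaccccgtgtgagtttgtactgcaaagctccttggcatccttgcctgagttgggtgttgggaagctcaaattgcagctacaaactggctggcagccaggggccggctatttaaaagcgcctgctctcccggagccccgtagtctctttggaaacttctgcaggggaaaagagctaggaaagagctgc

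The IGF1 window holds neither motif and 0 CG pairs, where the median promoter window has 14. A second RefSeq start of IGF1, at chr12:102478501-102478800, also holds neither motif and has 1 CG pair. The window of IGFBP3 has 36 CG pairs and 2 GC boxes, and that of IGFBP4 has 30 CG pairs, 2 GC boxes and the only TATAAA among the 11 windows. IGFBP5 has 9 CG pairs and neither motif. The receptors have the densest starts, with 55 CG pairs for IGF1R and 41 for IGF2R. These are descriptions of the letters alone, as no binding or methylation was measured.

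Values are the tag counts that the authors normalized for GC content and rounded. Every sample holds the same sorted set of values, with a sum of 17856940, a median of 197, a ceiling of 90700 shared by 10 genes, and 1292 genes listed at 0, so a value is close to a rank among genes of like GC content. Sequencing depth is therefore not visible. At the top, values fall on a few steps, and differences there are compressed. Values were not scaled by gene length, so a gene is compared between samples and not with other genes. Marker sums add such values and are likewise to be read between samples for 1 list, not between lists. Comparisons were made with limma on log2(value + 1) over the 33 replicated samples, with 19788 genes tested, all 10 IGF genes among them. A gene counts as called at an adjusted p below 0.05 together with a change of more than 4-fold, and a fold change on this scale understates the change of low values.

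**Figure D1:**
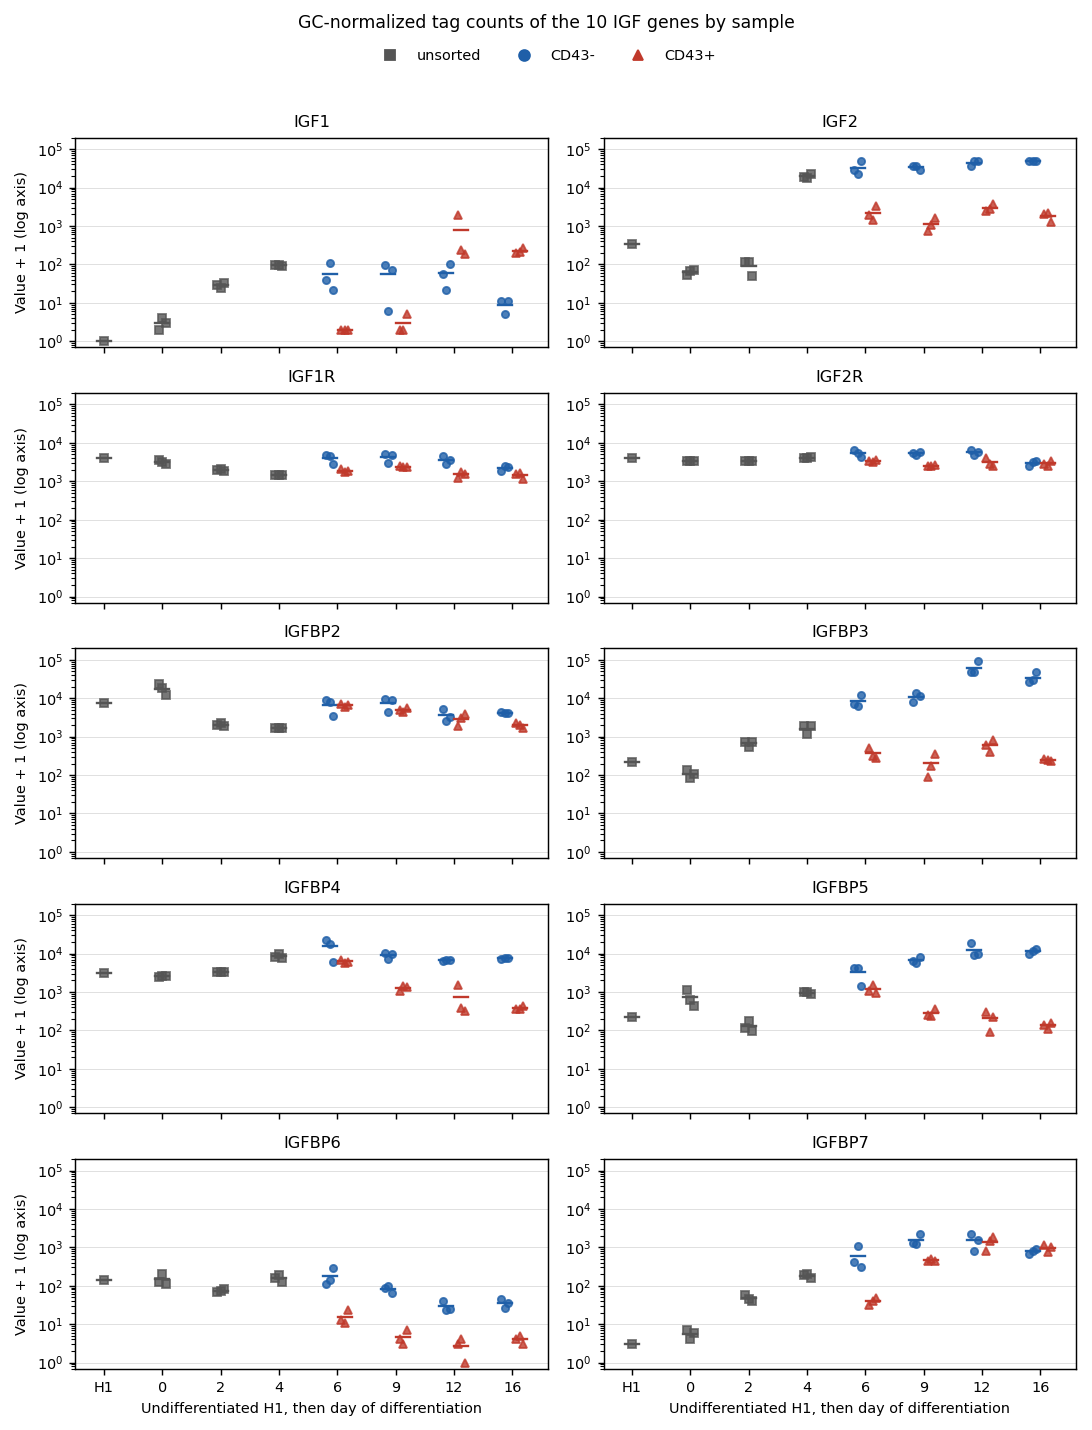
Value + 1 of each of the 10 IGF genes (log axis) in the 34 samples, by stage: undifferentiated H1, days 0, 2 and 4 unsorted (grey squares), and CD43- (blue circles) and CD43+ (red triangles) cells of days 6 to 16; points are samples and short lines are means. IGF2 and IGFBP3 separate fully by CD43 on all 4 days, IGF1 changes sides between days 9 and 12, and the receptors stay in a narrow band.

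The IGF2 gene lies at chr11:2129112-2141238 (GRCh38, minus strand). It stood at 332 in the undifferentiated sample, at 52, 68 and 72 on day 0, and at 117, 112 and 48 on day 2. On day 4 it stood at 18751, 17338 and 22812. Every day 4 sample was above every earlier one, and the difference between days 4 and 2 was 7.81 (SE 0.32) on the log2 scale, or 225-fold (limma adjusted p = 3.15e-16).

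After the sort, IGF2 in CD43- cells was 29000, 22812 and 48030 on day 6, 37166, 37166 and 29000 on day 9, 37166, 48030 and 48030 on day 12, and 48030 in each of the 3 samples of day 16. Repeats of 48030, 37166 and 29000 are the steps of the scale, and the SD of 0 on day 16 is a product of them. In CD43+ cells the values were 1909, 1456 and 3241 on day 6, 728, 1070 and 1615 on day 9, 2518, 2688 and 3781 on day 12, and 2000, 2234 and 1275 on day 16. The populations did not overlap on any day. The log2 differences of CD43+ from CD43- cells were -3.93, -4.98, -3.90 and -4.75 in the order of the days (SE 0.32 each), with adjusted p between 1.21e-10 and 3.21e-13 (limma). In bulk samples, fewer cells with the transcript and less transcript per cell cannot be told apart.

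CD43+ cells still held more IGF2 than day 0 and day 2 cells: the lowest CD43+ sample, at 728, was above 117, the highest of days 0 and 2. From the highest mean down, the populations ran CD43- of days 16, 12, 9 and 6, then day 4, then CD43+ of days 12, 6, 16 and 9, then days 2 and 0. Neighbours in this order overlapped in range except at 2 steps, from day 4 to the CD43+ cells and from the CD43+ cells to day 2. Within CD43+ cells the difference of IGF2 was -0.95 between days 9 and 6 and 1.45 between days 12 and 9 on the log2 scale (adjusted p = 0.0244 and 0.000362), both short of 4-fold.

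Stromal markers were mostly on the same side as IGF2 between CD43+ and CD43- cells, but their sums did not follow IGF2 throughout. On days 0 and 2 the sums were 6806 to 14551 with IGF2 at 48 to 117. CD43+ cells of day 9 had 4382 to 22264 with IGF2 at 728 to 1615. Day 6 CD43+ replicate 3 had a sum of 156322 and IGF2 at 3241, against 140412 and 18751 in day 4 replicate 1. Of that 156322, COL1A2 alone gave 90700, the ceiling of the scale. Gene by gene, 6 of the 10 stromal genes were called lower in day 6 CD43+ cells than on day 4, with a median difference of -2.39. Between CD43+ and CD43- cells, all 10 stromal genes were called lower in CD43+ cells on days 9, 12 and 16 and 7 of the 10 on day 6. No stromal gene was listed at 0 in a sorted sample. Their summed value in CD43+ cells was 59694, 74808 and 156322 on day 6 with COL1A2 the highest-valued of the list, 4382, 8653 and 22264 on day 9, 24400, 21369 and 46284 on day 12, and 16254, 11367 and 7753 on day 16. On days 6, 9 and 12 replicate 3 of the CD43+ cells held both the highest stromal sum and the highest IGF2, and on day 16 the lowest of both. Replicates 1 and 2 of the CD43+ cells ran in opposite order for the sum and for IGF2 on days 6, 12 and 16. In CD43- cells replicate 3 held the highest of both on day 6 (250050 and 48030). On day 9 it held the highest sum, 301306, and the lowest IGF2, 29000. Other markers of CD43- cells were mostly on the same side: 4, 4, 5 and 6 of the 6 endoderm genes were called lower in CD43+ cells on days 6, 9, 12 and 16, and 4 of the 5 endothelial genes on days 9, 12 and 16. No endothelial gene was called on day 6, where 4 of the 5 were lower and 1 was higher. The endoderm gene TF was called higher in CD43+ cells on day 9, and ALB, which was not called, differed by 1.40 and 2.27 on days 6 and 9. The part of stromal, endoderm or endothelial RNA in the IGF2 difference was not tested.

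**Figure D2:**
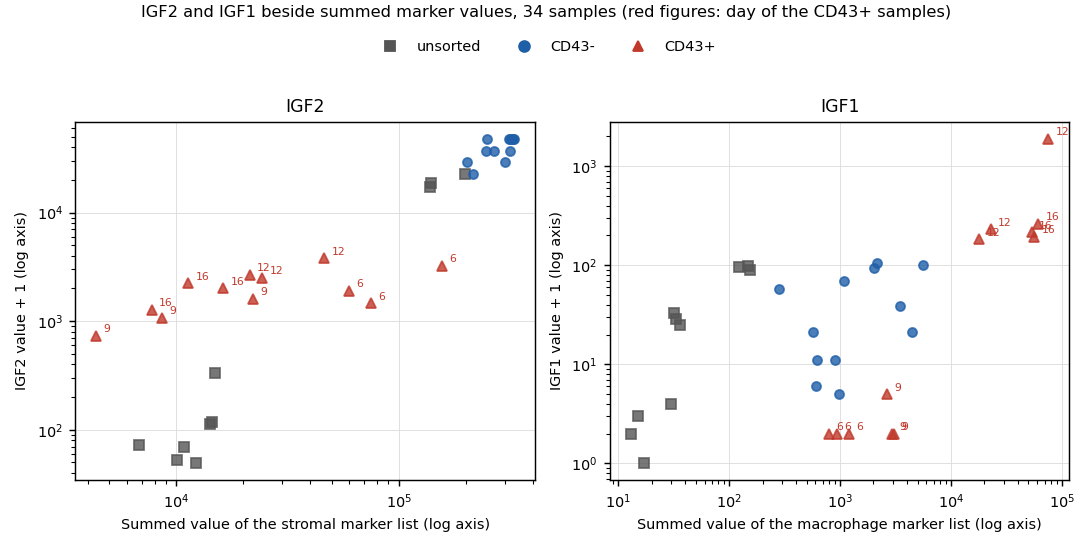
IGF2 value + 1 against the summed stromal marker value, and IGF1 value + 1 against the summed macrophage marker value (all log axes), 1 point for each of the 34 samples; grey squares are unsorted, blue circles CD43- and red triangles CD43+ samples, the last with their day. CD43- samples sit at high stromal sums and high IGF2, and the CD43+ samples of days 12 and 16 sit at high macrophage sums and high IGF1.

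IGF2 overlaps IGF2-AS, an antisense RNA in the same table, and INS-IGF2, a readthrough gene that is not in it. Whether counting used strand is not given in the sources used here, so reads of IGF2 and IGF2-AS may have been shared. IGF2-AS was listed at 0 in all 6 samples of days 0 and 2 and stood at 208, 140 and 232 on day 4. H19 rose beside them, from 328, 268 and 325 on day 2 to 90700, 29000 and 90700 on day 4, a log2 difference of 7.66 (limma adjusted p = 3.44e-16).

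On the gene list set around IGF2 (IGF2BP1, IGF2BP2, IGF2BP3, HMGA2, LIN28B, PLAG1, H19 and IGF2-AS, 8 of 9 listed genes in the table), H19, IGF2-AS and HMGA2 were called lower in CD43+ cells on each of the 4 days, 3 of the 8 genes, where 7.85%, 12.8%, 14.4% and 13.6% of all genes were called lower, and none was called higher. H19 differed by -3.52, -4.29, -3.73 and -4.64 on days 6, 9, 12 and 16. HMGA2, a chromatin protein known to raise IGF2 transcription, differed by -3.03, -3.91, -3.42 and -3.24. The median of the 8 genes was -0.50, -0.78, -0.77 and -0.66, against 0.14, 0.24, 0.22 and 0.14 over all genes tested. IGF2BP1, IGF2BP2 and IGF2BP3, which bind IGF2 mRNA, were not called on any of these days, and their differences lay between -1.01 and 0.27.

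IGF1 lies at chr12:102395867-102480645 (minus strand) and overlaps the antisense RNA HELLPAR. It was listed at 0 in the undifferentiated sample and stood at 1, 3 and 2 on day 0, 28, 24 and 32 on day 2, and 96, 97 and 88 on day 4. The 3 days did not overlap. IGF1 rose by 3.32 (SE 0.81) on the log2 scale from day 0 to day 2 (limma adjusted p = 0.00191; 1.66, under 4-fold, with a pseudocount of 10), while the difference of 1.71 between days 4 and 2 did not pass the threshold (adjusted p = 0.101).

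In CD43- cells IGF1 stood at 38, 105 and 20 on day 6, 94, 5 and 69 on day 9, 56, 20 and 100 on day 12, and 10, 4 and 10 on day 16. In CD43+ cells it stood at 1 in each sample of day 6, 1, 1 and 4 on day 9, 1902, 230 and 182 on day 12, and 194, 215 and 260 on day 16. The populations were apart on each of the 4 days, but on opposite sides: CD43+ samples were all the lower on days 6 and 9 and all the higher on days 12 and 16. The log2 differences were -4.47, -3.65, 3.13 and 4.72 (SE 0.81 each), with limma adjusted p of 4.77e-05, 0.000287, 0.0013 and 1.09e-05. With CD43+ samples at 1 to 4, the sizes of days 6 and 9 rest on the pseudocount: with a pseudocount of 10 they were -2.32 and -2.06, still called. The day 9 difference ranged from -2.92 without replicate 1 of the CD43- cells (94) to -4.91 without replicate 2 (5).

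The shift of the IGF1 difference between days 9 and 12, tested as a difference of differences, was 6.78 (SE 1.14, limma adjusted p = 6.19e-05). In CD43+ cells IGF1 rose by 7.31 (SE 0.81, adjusted p = 2.39e-08), and in CD43- cells the difference between these days was 0.53 (SE 0.81, adjusted p = 0.641). With CD43+ cells at 1, 1 and 4 on day 9, the sizes of the shift and of the rise depend on the pseudocount. CD43- cells fell later, by 2.55 between days 12 and 16 (adjusted p = 0.0119). That last call was lost without replicate 3 of the day 12 CD43- cells (-2.03, adjusted p = 0.0727) or without replicate 2 of the day 16 CD43- cells (-2.17, adjusted p = 0.0597). With a pseudocount of 10 it was -1.76, under 4-fold. The gate also changed at this step, from CD43- to CD43-CD45-. Macrophage markers (CD163, CD14, C1QA, C1QB, MRC1, CSF1R) moved with IGF1: their sum in CD43- cells was 280, 4443 and 5616 on day 12 and 623, 982 and 900 on day 16, and 4 of the 6 were called lower. Other blood markers moved the other way, with 4 of 4 neutrophil, 4 of 4 megakaryocyte and 3 of 4 erythroid genes called higher. At the step before, between days 9 and 12, 5 of the 6 macrophage markers were called higher in CD43- cells, beside the IGF1 difference of 0.53. Within day 12, replicate 1, with the lowest sum, had more IGF1 (56) than replicate 2 (20). Replicate 3 had the highest of both, a sum of 5616 and IGF1 at 100. The part of macrophages, of other blood cells or of the changed gate in the IGF1 of CD43- cells was not tested.

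Replicate 1 of the day 12 CD43+ cells, at 1902, was far above the other 2. Without it the day 12 difference between CD43+ and CD43- cells was 2.06 (limma adjusted p = 0.0251), just past 4-fold, the rise from day 9 was 6.24, and the shift between days 9 and 12 was 5.71 (adjusted p = 0.000263). The same sample had the highest macrophage sum, 75650 against 22939 and 17992 in the other 2, with CSF1R the highest-valued marker in all 3. Macrophage sums of CD43+ cells were 801 to 1209 on day 6, with C1QA and C1QB at 0 in all 3 samples, 2639 to 3095 on day 9 and 53355 to 61006 on day 16, and all 6 markers were called higher in CD43+ than in CD43- cells on days 12 and 16. Between days 6 and 9, 3 of the 6 were already called higher in CD43+ cells, while the IGF1 difference between these days was 0.44 (adjusted p = 0.738). Neutrophil markers were higher on day 12 as well, with sums of 21823 to 30104 on day 9 and 137413 to 154295 on day 12 in CD43+ cells and 3 of the 4 called. The part of macrophages or neutrophils in IGF1 was not tested.

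The receptors moved by less than 4-fold. IGF1R (chr15:98648971-98964530, plus strand) stood at 3981 in the undifferentiated sample, 2822 to 3513 on day 0, 1870 to 2065 on day 2 and 1444 to 1470 on day 4. In CD43- cells it was 2756 to 4896 on day 6, 2954 to 5126 on day 9, 2862 to 4506 on day 12 and 1864 to 2496 on day 16. In CD43+ cells it was 1697 to 2040, 2369 to 2461, 1254 to 1730 and 1179 to 1660 on the same days. Its widest difference was that of day 6 CD43- cells from day 4, at 1.44 on the log2 scale or 2.72-fold, without overlap (adjusted p = 1.87e-06, limma). The CD43+ samples were below the CD43- samples on each day without overlap, with differences of -1.10, -0.80, -1.25 and -0.60 on the log2 scale (SE 0.20, limma adjusted p = 4.52e-05, 0.000896, 3.37e-06 and 0.00906), which is under the 4-fold threshold throughout.

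IGF2R (chr6:159969099-160113507, plus strand), the receptor that clears IGF2, ranged from 3302 to 4194 over days 0, 2 and 4. Its CD43- means were 5500 ± 1230, 5418 ± 574.5, 5756 ± 958.8 and 3044 ± 411.3 on days 6, 9, 12 and 16 (SD, n = 3). Its CD43+ means were 3295 ± 186.4, 2535 ± 76.3, 3160 ± 876.3 and 2911 ± 441.3. The difference was -0.72, -1.09 and -0.89 on days 6, 9 and 12 without overlap, and -0.07 (SE 0.16, limma adjusted p = 0.728) on day 16, where the samples overlapped. Between days 12 and 16 the difference within CD43- cells was -0.91 (adjusted p = 3.38e-05), without overlap. The change of this difference from day 12 to day 16 was 0.82 (SE 0.22, adjusted p = 0.0111), below 4-fold. IGF2R is imprinted in mice and, in people, in some individuals only; the table does not tell the parental copies apart.

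IGFBP3, the main carrier of IGFs in blood plasma, had the widest CD43 difference of the set. The gene lies at chr7:45912245-45921874 (minus strand). It stood at 85 to 134 on day 0, 538 to 743 on day 2 and 1197 to 1842 on day 4. From day 0 to day 2 it rose by 2.63 (SE 0.37, limma adjusted p = 2.58e-06). In CD43- cells the values were 6922, 6144 and 12018 on day 6, 7780, 13327 and 11512 on day 9, 48061, 48061 and 90700 on day 12, and 25876, 29030 and 48061 on day 16. In CD43+ cells they were 510, 310 and 271, then 90, 170 and 354, then 622, 404 and 803, then 258, 241 and 238. The highest CD43+ sample of any day, at 803, was below the lowest CD43- sample, at 6144. The differences were -4.51, -5.91, -6.66 and -7.07 (SE 0.37 each), that is 22.8-fold, 60.0-fold, 101-fold and 134-fold, with adjusted p between 1.64e-10 and 3.62e-15. From one day to the next these differences changed by -1.40, -0.75 and -0.41, and none of the 3 changes was called (adjusted p = 0.0634, 0.309 and 0.645). Both sorted populations had left the day 4 level, CD43- cells with a difference of 2.32 and CD43+ cells with one of -2.19. In CD43- cells IGFBP3 rose once more between days 9 and 12, by 2.49 (adjusted p = 1.14e-05), into the steps at the top of the scale.

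IGFBP5 (chr2:216672105-216695525, minus strand), a binding protein that attaches to extracellular matrix, was called between CD43+ and CD43- cells from day 9. It fell from 1138, 633 and 434 on day 0 to 118, 176 and 96 on day 2, by 2.42 on the log2 scale, and rose to 992, 972 and 864 on day 4, by 2.89 (SE 0.39 each, limma adjusted p = 1.81e-05 and 1.27e-06). On day 6 it stood at 4196, 4118 and 1456 in CD43- cells and at 1092, 1493 and 968 in CD43+ cells. These samples overlapped through replicate 3 of the CD43- cells, at 1456. The difference of -1.33 was short of 4-fold (limma adjusted p = 0.00593). On day 9 the values were 6256, 5707 and 8281 against 249, 230 and 368, on day 12 18776, 9248 and 9728 against 303, 92 and 220, and on day 16 9902, 11512 and 12854 against 136, 108 and 156. The differences of -4.59, -6.01 and -6.42 were called, with no overlap. Between CD43+ and CD43- cells the gap in IGFBP5 moved by -3.26 (SE 0.55, adjusted p = 0.000131) from day 6 to day 9. In CD43+ cells alone IGFBP5 fell by 2.07 between these days, at the edge of the 4-fold threshold. The difference became -1.89 without replicate 2 of the day 6 CD43+ cells. It was -2.00 and -1.94 without replicate 1 and replicate 2 of the day 9 CD43+ cells. For the change of the gap, 4 of the 10 stromal and 2 of the 5 endothelial genes were also called lower. The endothelial sum of CD43+ cells was 27924 to 37605 on day 6 and 7661 to 10571 on day 9, with 3 of the 5 genes called lower. The part of these cells in IGFBP5 was not tested.

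IGFBP4 (chr17:40443461-40457731, plus strand), the binding protein that PAPPA cuts, was likewise called from day 9. It stood at 2414 to 2653 on day 0, 3288 to 3358 on day 2 and 7746 to 9860 on day 4. On day 6 it was 22758, 17284 and 6121 in CD43- and 7007, 5760 and 6220 in CD43+ cells, which overlapped through the third CD43- sample. That sample was also the lowest of its population for IGFBP2, IGFBP5, IGFBP7, IGF1 and both receptors and the highest for IGF2, IGFBP3 and IGFBP6, and its mean correlation with the other 2 CD43- samples over all genes tested was 0.968, against 0.975 and 0.977 for those. Its markers differed as well: its endothelial sum was 30263 against 91098 and 71914 in the other 2, and its MRC1 503 against 3426 and 2088, while its stromal sum of 250050 and endoderm sum of 5590 were the highest of the 3. The part of cell make-up in its IGF values was not tested. IGFBP4 in CD43- cells then lay between 6556 and 10397 on days 9, 12 and 16. In CD43+ cells it was 1061, 1422 and 1319 on day 9, 1504, 374 and 323 on day 12, and 368, 354 and 442 on day 16. The difference was -1.09 on day 6, short of 4-fold and so not called (limma adjusted p = 0.0168). It was -2.84, -3.58 and -4.28 on days 9, 12 and 16 (SE 0.37, limma adjusted p = 2.1e-07, 2.74e-09 and 9.55e-11). Between days 6 and 9 IGFBP4 in CD43+ cells fell by 2.33 (limma adjusted p = 2.24e-05), and the gap to CD43- cells moved by -1.75 (SE 0.53, adjusted p = 0.0197), short of 4-fold. At this step 3 of the 5 endothelial and 3 of the 10 stromal genes were called lower in CD43+ cells. Their part in the fall of IGFBP4 was not tested. The day 12 CD43+ sample at 1504 is replicate 1, the one with the highest IGF1. It stood far above 374 and 323, so the size of the day 12 difference depends on it and would be larger without it.

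IGFBP6 (chr12:53097436-53102345, plus strand), which binds IGF2 better than IGF1, was a low-valued gene. In CD43- cells it stood at 108, 142 and 288 on day 6, 85, 96 and 62 on day 9, 38, 22 and 24 on day 12, and 44, 26 and 34 on day 16, and no step between neighbouring days was called. In CD43+ cells it stood at 12, 10 and 22 on day 6 and at 0 to 6 later. The populations did not overlap, and the differences of -3.47, -4.20, -3.62 and -3.16 were called (limma adjusted p at most 5.32e-07). At such low values the pseudocount decides the size: with a pseudocount of 10 the differences of days 12 and 16 were -1.69 and -1.76. Both are under 4-fold, so these 2 calls were lost.

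IGFBP7 (chr4:57030773-57110385, minus strand), a related secreted protein that binds IGFs weakly and is known from vessel walls and stroma, was called between CD43+ and CD43- cells on day 6 alone. It rose from 3 to 6 on day 0 to 40 to 56 on day 2, by 3.11 on the log2 scale (SE 0.36, limma adjusted p = 1.49e-07; 1.95, under 4-fold, with a pseudocount of 10), and stood at 158 to 197 on day 4. In CD43- cells it was 420, 1084 and 312 on day 6, 1288, 1231 and 2262 on day 9, 2163, 816 and 1564 on day 12, and 656, 794 and 900 on day 16. In CD43+ cells it was 30, 40 and 48 on day 6, 451, 484 and 440 on day 9, 798, 1428 and 1887 on day 12, and 1137, 774 and 1011 on day 16. CD43+ cells differed by -3.72 on day 6 (adjusted p = 3.77e-09) and by -1.74 on day 9, and the populations overlapped on days 12 and 16 at -0.12 and 0.31. The rise of CD43+ cells from day 6 to day 9 was 3.53 (limma adjusted p = 2.67e-08). Their make-up changed at this step: 3 of 4 megakaryocyte markers (ITGA2B, PF4 and PPBP among the list), 3 of 4 neutrophil and 3 of 6 macrophage markers were called higher. Of the 5 endothelial genes, 3 were called lower. The part of these cells in the IGFBP7 rise was not tested. The CD43 difference changed by 1.98 from day 6 to day 9 and by 1.62 from day 9 to day 12 (SE 0.52, adjusted p = 0.00752 and 0.0197), both under 4-fold. IGFBP7 overlaps POLR2B on the other strand, so that the share of its reads is uncertain.

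IGFBP2 (chr2:216632828-216664436, plus strand), next to IGFBP5 on the chromosome and abundant in pluripotent and fetal cells, fell between days 0 and 2 and stood higher again on day 6. It stood at 7637 in the undifferentiated sample, at 22847, 18776 and 12018 on day 0, 2050, 2248 and 1842 on day 2 and 1630, 1722 and 1680 on day 4. From day 0 to day 2 it fell by 3.08 (SE 0.31, limma adjusted p = 1.08e-08). It was then 3380 to 8977 in CD43- and 5914 to 6922 in CD43+ cells on day 6, above day 4 by 1.89 and 1.95, short of 4-fold. The CD43 differences of 0.06, -0.56, -0.32 and -1.07 were not called. Only on day 16, at 4118 to 4332 against 1701 to 2316, did the samples not overlap (adjusted p = 0.00358).

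**Figure D3:**
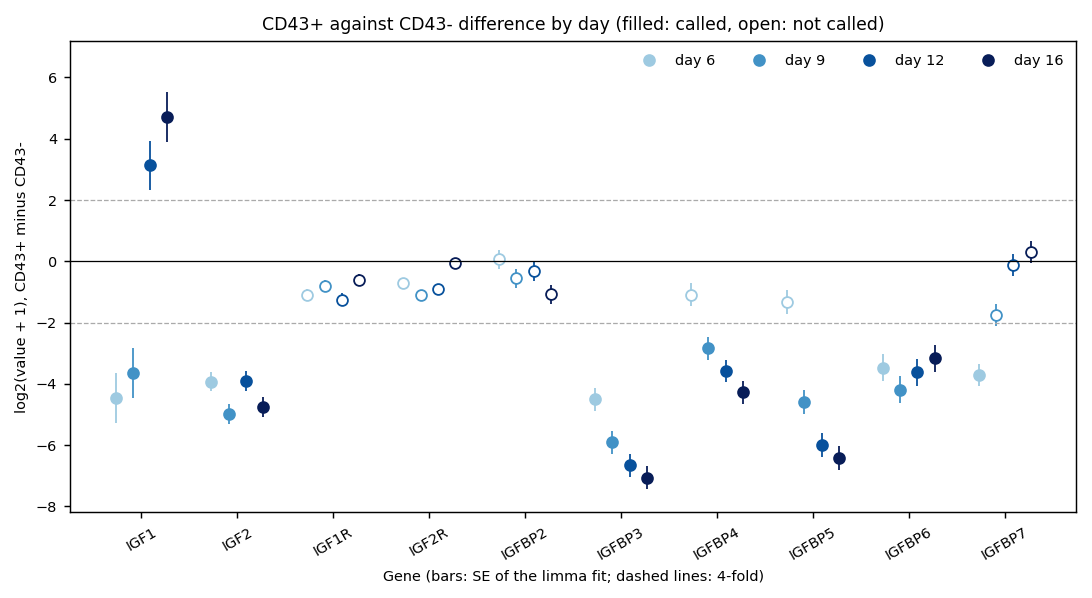
Difference of log2(value + 1) between CD43+ and CD43- cells for each of the 10 IGF genes on days 6, 9, 12 and 16 (light to dark); bars are the SE of the limma fit, filled points were called and open points were not, and dashed lines mark 4-fold. IGF1 crosses from -4.47 on day 6 to 4.72 on day 16, IGFBP3 reaches -7.07, and IGFBP7 ends at 0.31.

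Counted over the set, 5 of the 10 genes were called between days 0 and 2 (IGFBP3, IGFBP7 and IGF1 higher, IGFBP5 and IGFBP2 lower), where 7.88% of all genes tested were called. Between days 2 and 4 it was 2 genes, IGF2 and IGFBP5, both higher, against 9.50% of all genes. From day 4, 1 gene was called in day 6 CD43- cells, IGFBP3 (7.71% of all genes), and 5 were called in day 6 CD43+ cells, all lower (IGF1, IGF2, IGFBP3, IGFBP6 and IGFBP7; 14.5% of all genes). The days compared share samples, so these counts are not independent of each other.

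Between CD43+ and CD43- cells, 5 genes were called lower on day 6 (IGF1, IGF2, IGFBP3, IGFBP6 and IGFBP7), where 7.85% of all genes were called lower. On day 9 it was 6 genes (IGF1, IGF2, IGFBP3, IGFBP4, IGFBP5 and IGFBP6; 12.8% of all genes lower). On day 12 it was 5 (IGF2 and IGFBP3 to IGFBP6; 14.4%), and on day 16 the same 5 (13.6%). IGF1 alone was called higher, on days 12 and 16, where 11.8% and 12.2% of all genes were. The median difference of the set was -2.40, -3.25, -2.42 and -2.12 on days 6, 9, 12 and 16, beside 0.14, 0.24, 0.22 and 0.14 over all genes tested.

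Within CD43- cells, none of the set was called between days 6 and 9 by limma (1.75% of all genes), though 3 had an unadjusted p under 0.05. IGFBP3 was called between days 9 and 12 (7.33% of all genes) and IGF1 between days 12 and 16 (10.4%). Within CD43+ cells, 3 were called between days 6 and 9, IGFBP7 higher and IGFBP4 and IGFBP5 lower (7.53% of all genes). IGF1 was the only one between days 9 and 12 (15.0%), and none was called between days 12 and 16 by limma (9.05%), where 2 had an unadjusted p under 0.05. A change in the gap between CD43+ and CD43- cells was called for IGFBP5 between days 6 and 9 (7.39% of all genes), upwards for IGF1 between days 9 and 12 (4.61% of all genes upwards) and for none between days 12 and 16 (5.03%), where 2 had an unadjusted p under 0.05.

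The other genes of the pathway were taken as a list of 30, of which 29 are in the table; INS is not. In CD43+ against CD43- cells, 7 of the 29 were called lower and 1 higher on day 6, 7 and 1 on day 9, 10 and 2 on day 12, and 9 and 2 on day 16. Over all genes, 4.68% were called higher on day 6 and 8.65% on day 9; the other shares are those given for the set. With a pseudocount of 10 the lower calls were 4, 6, 6 and 6. The median of the 29 genes was -0.30, -0.36, -0.60 and -0.59, below that of all genes on each of the 4 days.

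Among the other carriers of the list, IGFBP1, a binding protein made mainly by liver and decidua, stood at 165, 77 and 7 in CD43- and at 34, 4 and 3 in CD43+ cells on day 6. It was called lower on days 6, 9 and 12, and listed at 0 in all 3 CD43+ samples of day 12. IGFBPL1, a protein related to the binding proteins, was called lower on days 9, 12 and 16, at 36, 44 and 70 against 1, 2 and 4 on day 9. Both are low-valued: with a pseudocount of 10 the calls of IGFBP1 on all 3 of its days and those of IGFBPL1 on days 12 and 16 were lost, and the day 6 call of IGFBP1 was also lost without any 1 of 4 samples.

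The proteases that cut IGF-binding proteins and their inhibitors lay on the CD43- side. PAPPA stood at 688, 1008 and 1254 in CD43- and at 34, 60 and 58 in CD43+ cells on day 6, a difference of -4.25 (limma adjusted p = 5.34e-09). It was -1.77 and not called on day 9, when CD43+ cells rose to 345, 292 and 442, and -4.70 and -5.33 on days 12 and 16. PAPPA2 was at 376, 202 and 296 in the CD43- cells of day 16 and listed at 0 in all 3 CD43+ samples; on days 6, 9 and 12 it differed by -3.72, -5.58 and -7.27, the first of which was -1.92 with a pseudocount of 10. HTRA1 differed by -2.93, -6.94, -6.37 and -6.54. STC1 and STC2, secreted inhibitors of PAPPA and PAPPA2, were called lower as well. STC1 differed by -2.50, -5.15, -6.80 and -4.93 on days 6, 9, 12 and 16, and by -1.94 on day 6, under 4-fold, without replicate 1 of the CD43- cells (996 beside 424 and 218). STC2 differed by -3.32 and -3.35 on days 12 and 16, while its differences of -1.91 and -1.77 on days 6 and 9 were under 4-fold.

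Inside the cell 3 adaptors were called lower in CD43+ cells, and 2 PI3K subunits were called higher. Over all genes, 7.85% to 14.4% were called lower and 4.68% to 12.2% higher on the 4 days. IRS1, the docking protein of the insulin and IGF1 receptors, was called lower in CD43+ cells on each day, at -2.34, -2.81, -3.96 and -2.23. The call of day 16 rested on replicate 3 of the CD43+ cells, at 107 beside 331 and 362, and without it the difference was -1.67, under 4-fold. IRS4, a further docking protein, was called lower on each day, at 54, 75 and 4 against 10, 6 and 2 on day 6 and at 85, 8 and 76 against 1, 1 and 2 on day 9, and was listed at 0 in all 6 CD43+ samples of days 12 and 16. GRB14, an adaptor that restrains the insulin receptor, was called lower on days 12 and 16, with values of 3 to 19 in CD43- and of 0 to 4 in CD43+ cells. With a pseudocount of 10 the calls of IRS4 on days 6, 12 and 16 and both calls of GRB14 were lost, and the day 6 call of IRS4 was also lost without any 1 of 3 samples. IRS2, another docking protein of these receptors, was not called on any of the days. Its differences were -0.75, -0.09, 1.34 and 1.75, and its CD43+ samples were all the higher on days 12 (3542, 3686 and 4329 against 1113, 1256 and 2509) and 16 (2487, 2118 and 1943 against 604, 771 and 572). AKT1 and AKT2, kinases further down, lay between -0.38 and 0.07. The PI3K subunit PIK3CD, the form of white blood cells, was 92 to 110 in the CD43+ cells of day 6 and 2451 to 3196 in those of day 16, against 230 to 325 in the CD43- cells of day 16. It was called higher on days 12 and 16, by 3.48 and 3.42. PIK3CB was called higher on days 9, 12 and 16, by 3.70, 3.51 and 2.60. The other PI3K subunits of the list, PIK3CA and PIK3R1, were not called on any of the days. INSR, the insulin receptor, was not called on any day and differed by -1.04 to -0.57. INSRR, a receptor of the insulin receptor family, was called higher on day 6, at 42 to 54 against 0 to 3, and on no other day. With a minimum of 100 INSRR was not tested. GRB10, an imprinted adaptor that restrains insulin and IGF1 receptor signals, was not called and differed by -0.30, 0.01, -0.79 and -1.31.

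**Figure D4:**
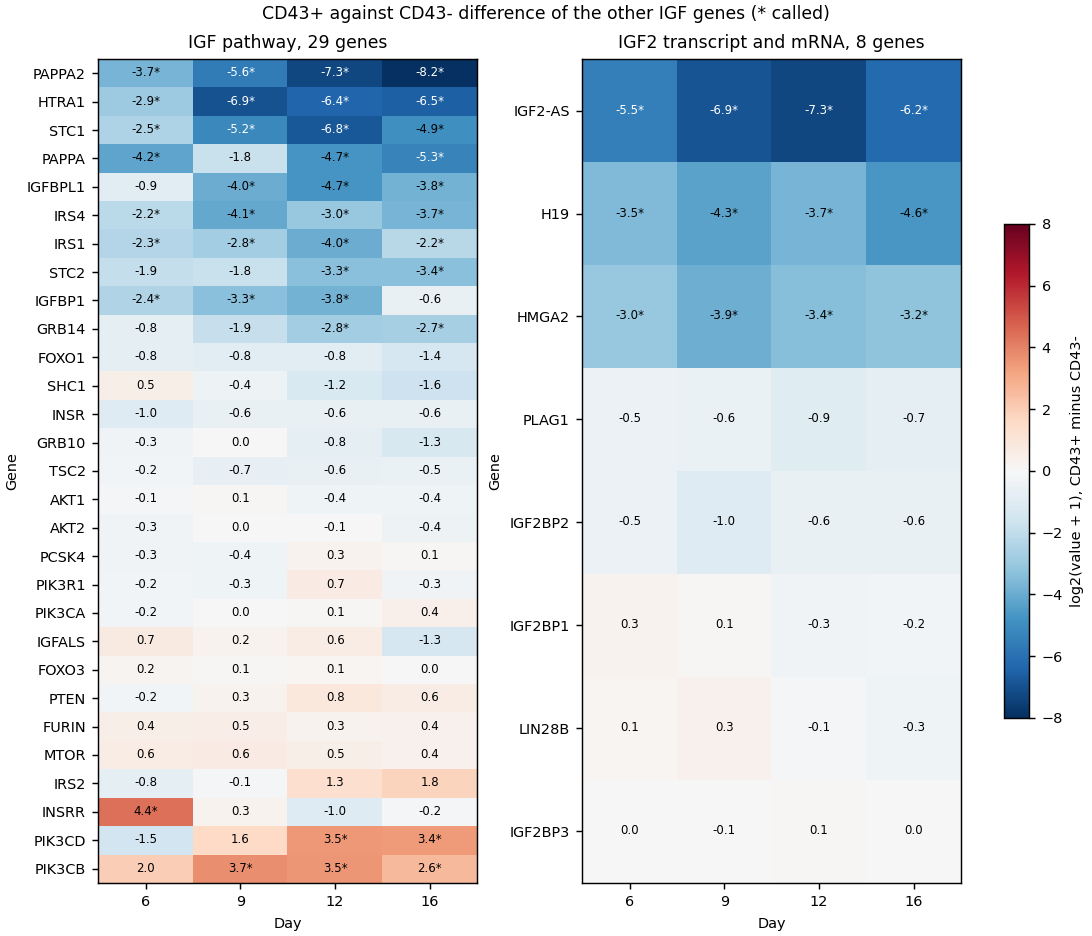
Difference of log2(value + 1) between CD43+ and CD43- cells on days 6, 9, 12 and 16 for the 29 genes of the IGF pathway list and the 8 genes of the IGF2 list (blue: lower in CD43+, red: higher); a star marks a call. Where the CD43+ samples are listed at 0, as for PAPPA2 on day 16, the number rests on the pseudocount. PAPPA2, HTRA1, STC1, IGF2-AS and H19 are starred on all 4 days, and PIK3CB and PIK3CD are red on days 9, 12 and 16.

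Over the 33 replicated samples, which share the sorts and days, the genes most like IGF2 by Pearson's r of log2(value + 1) were LUM (0.980), COL3A1 (0.961) and H19 (0.958). LUM and COL3A1 are also on the stromal list. For IGF1 they were GALNS (0.907), GLIPR2 (0.894) and SLC35F6 (0.893). SLC18A3 (0.964), TGFBR3 (0.961) and SEC31A (0.956) were most like IGFBP3, and AKAP12 (0.953), MMP2 (0.949) and JAM3 (0.948) most like IGFBP4. For IGFBP5 they were MAGI2-AS3 (0.949), TSC1 (0.943) and FBXL2 (0.940), for IGFBP6 IFT81 (0.961), UGT3A2 (0.955) and HCN4 (0.954), and for IGFBP7 PAG1 (0.956), CEBPD (0.919) and CRTC3 (0.912). The flatter genes had looser matches, with CDC42BPA (0.864) nearest IGF1R, TIAM1 (0.875) nearest IGF2R and ABCA3 (0.887) nearest IGFBP2. Within the set, the closest pairs were IGFBP3 with IGFBP5 (0.84), IGF2 with IGFBP3 (0.82) and IGFBP4 with IGFBP5 (0.76), and the lowest r was that of IGF1 with IGFBP2 (-0.56).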

How the data were processed

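RNA of 34 samples of differentiating H1 cells was sequenced at 2 companies; which sample went to which is not given. Per the study's methods and the labels, the authors aligned reads with Bowtie2 and counted them with RSEM on an Ensembl annotation, then normalized them with EDASeq for GC content; the submitters' notes also name bcl2fastq, STAR 2.7 and hg38. The deposited score is this GC-normalized tag count, rounded to whole numbers, the same sorted set in every sample; the deposited gc column gives each gene's GC content in percent. The values are no longer raw counts, so no count model was used and depth and its counting error are unknown.

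Groups follow the labels. The IGF genes and other lists were chosen with earlier results of these data known, and no list was tested as a set. A gene of the pathway list and a gene of the erythroid list are not reported here, and are left out of those counts and sums. All 10 IGF genes were named. The 3 genes most like each were named by Pearson's r over 33 samples. Of the other lists, those called between CD43+ and CD43- cells were named. AKT1, AKT2, INSR, GRB10, IRS2, PIK3CA, PIK3R1 and the IGF2BP genes, which were not called, were named after their values were seen. The 19788 of 20255 genes that reached 10 in 3 or more samples entered 1 limma 3.58.1 fit (R 4.3.3; lmFit, eBayes with trend) of log2(value + 1) over 11 populations, without a replicate block. Adjusted p-values are Benjamini-Hochberg over all genes tested in a comparison, two-sided; calls need adjusted p below 0.05 and a fold change above 4, in 17 comparisons. The fit was tested on simulated data. Replicates are biological per the study's methods. Same-numbered CD43+ and CD43- samples deviated together on day 6 (r of deviations 0.198, 0.109 and 0.199), and in no other comparison was r over 0.1 in all 3 pairs. Sequences are RefSeq's. Alternatives were pseudocounts of 0.1 and 10, no filter, a minimum of 100, median-of-ratios scaling, a replicate block, fits of the compared populations only, a 2-fold threshold, and leaving out each of the 33 samples in turn.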

Additional observations from a re-analysis of the deposited data

Results flagged for a closer look

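For IGF1 the difference between CD43+ and CD43- cells changed by 6.78 (SE 1.14) on the log2 scale from day 9 to day 12, from lower to higher in CD43+ cells, by a limma test of the change itself (adjusted p = 6.19e-05). All 3 CD43+ samples were below all 3 CD43- samples on day 9, the closest at 4 against 5, and above them on day 12. With CD43+ cells at 1, 1 and 4 on day 9, the size of this change depends on the pseudocount. Leaving out 1 sample at a time gave 5.71 (without replicate 1 of the day 12 CD43+ cells, the sample with the highest IGF1, 1902, and the highest macrophage sum, 75650) to 8.03 (without replicate 2 of the day 9 CD43- cells). For IGFBP5 the difference changed by -3.26 (SE 0.55) from day 6 to day 9 (limma adjusted p = 0.000131), from overlapping samples to populations that were fully apart. The day 6 overlap came through replicate 3 of the CD43- cells alone, at 1456 beside 4196 and 4118, against at most 1493 in CD43+ cells. That sample had the lowest mean correlation with its replicates among the day 6 CD43- samples, 0.968. For the change of IGFBP5 from day 6 to day 9, 4 of the 10 stromal and 2 of the 5 endothelial genes were also called lower. Their part in the IGFBP5 change was not tested.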

How the results depend on the processing

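No call of an IGF gene changed direction under any alternative, and the counts of called genes between CD43+ and CD43- cells on days 9, 12 and 16 stayed within 1.5 times under each of them. With a 2-fold threshold the counts were 5 between days 2 and 4 (2 at 4-fold), 5 for day 6 CD43- against day 4 (1), 8 for CD43+ against CD43- on day 6 (5), 1 and 3 within CD43- cells from day 6 to 9 and from day 9 to 12 (0 and 1), 5 and 1 within CD43+ cells from day 9 to 12 and from day 12 to 16 (1 and 0), and 3 and 2 for the change in the gap between CD43+ and CD43- cells from day 6 to 9 and from day 9 to 12 (1 each). With a pseudocount of 10 the count between days 0 and 2 was 3 (5), losing IGF1 (1.66) and IGFBP7 (1.95), and that of CD43- cells from day 12 to 16 was 0 (1), since IGF1 stood at -1.76. IGFBP7 in day 6 CD43+ cells against day 4 was then -1.98. The IGFBP6 calls between CD43+ and CD43- cells on days 12 and 16 were also lost with a pseudocount of 10. With a pseudocount of 0.1 the change in this gap from day 6 to 9 counted 2 genes (1). Leaving out 1 sample at a time gave 1 to 3 for day 6 CD43- against day 4 (3 without replicate 3 of the day 6 CD43- cells), 0 to 1 for CD43- cells from day 6 to 9 (1 without replicate 2 of day 6) and from day 12 to 16, 1 to 2 for CD43+ cells from day 9 to 12 (2 without replicate 3 of day 9 or replicate 2 of day 12), and 1 to 3 for the change from day 6 to 9 (3 without replicate 1 of the day 6 CD43- cells).

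With the replicate block, the counts for CD43+ against CD43- were 5, 6, 6 and 6 on days 6, 9, 12 and 16, as without it, and no other call of an IGF gene changed; a fit of the day 6 populations alone with the block, chosen after seeing the data, also gave 5. In a fit of the day 9 populations alone IGF1 did not reach the filter and got no value, which left 5 genes called. Median-of-ratios scaling moved the median of all genes by -0.139 and -0.206 between CD43+ and CD43- cells on days 6 and 9, by 0.149 in CD43+ cells from day 9 to 12 and by 0.107 in the change from day 9 to 12, and moved no call of an IGF gene. The pathway list had 42 calls between days 2 and 4 and between CD43+ and CD43- cells. Of these, 14 were lost under at least 1 alternative other than the fold threshold. They were mostly low-valued genes (IGFBP1, IRS4, GRB14, IGFBPL1) with a pseudocount of 10. A call was not counted as lost where a filter left its gene untested, as for INSRR on day 6 with a minimum of 100. None of the 14 calls in the list set around IGF2 was lost, and none in either list changed direction. Over all genes, the number called between CD43+ and CD43- cells on day 6 was 2480, against 1458 with a pseudocount of 10 and 5369 at 2-fold; for CD43- cells from day 6 to 9 it was 347, against 54 in a fit of the compared populations only. The compressed top of the scale limits what can be read for IGF2, H19 and IGFBP3, and unknown depth limits what can be read for values near 0 (IGF1, IGFBP6 and IGF2-AS).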
